A study of Mus musculus with 8 samples.

Results

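Expression of 10 immediate early genes was followed in single cells of naïve mouse brain and of GL261 glioma. They were taken as a list of named genes, chosen with earlier results of these data known: Fos, Fosb, Jun, Junb, Egr1, Atf3, Ier2, Dusp1, Nr4a1 and Zfp36. All 10 were among the 18471 genes found in at least 30 cells, of 32502 genes listed in any library. Their levels were given for each cell class and library in CPM. This is the gene's UMIs (counted messenger RNA molecules) divided by all UMIs summed over the cells of that class and library, times 1e6.

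The study prepared 8 Drop-seq libraries of C57BL/6 mice (C57BL/6N by the methods), 1 for each of 2 genotypes at 4 conditions. The genotypes were WT (Irg1/Acod1 +/+) and KO (Irg1/Acod1 -/-), the latter carrying an insertion cassette in Acod1, which encodes the enzyme that makes itaconate. Naïve mice bore no tumour, and the other mice received 500 GL261 cells, a mouse glioma cell line from a chemically induced tumour, and were sampled at the early (5 to 10 mm3), intermediate (20 to 25 mm3) or late (30 to 35 mm3) stage. Each tumour-bearing library came from 1 mouse, whereas the title of each naïve library names 2 mice. The age of the mice is not given in the sources used here. By the methods, the tissue was naïve brain or the core region of the tumour, and both were dissociated with warm enzymes before myelin was removed. The tissue taken therefore differs between the groups along with the tumour itself, and the effects of tumour and of the handling of each tissue cannot be told apart. Within each genotype a condition had 1 library, so that 2 naïve libraries were compared with up to 6 tumour-bearing ones, and p-values measure the spread between these libraries.

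Immediate early genes are transcribed within minutes of a stimulus, from factors already present in the cell, and most of their transcripts are short-lived. Fos, Fosb, Jun and Junb encode subunits of the AP-1 transcription factor, and Egr1, Atf3 and Nr4a1 encode further transcription factors. Ier2 encodes a nuclear protein of the serum response. Dusp1, a phosphatase that inactivates MAP kinases, and Zfp36, which binds AU-rich elements and destabilizes messenger RNA, act back on the response. The genes are known to answer to growth factors, neuronal activity, cytokines and mechanical or thermal stress, also during the preparation of cells.

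RefSeq promoter windows on GRCm38.p6 were matched by symbol for 8 of the 10 genes, and none was matched for Egr1 and Ier2. The 250 bases before the start of transcription were searched on both strands for TGACGTCA (the palindromic site of CREB and ATF factors), for TGACTCA and its reverse complement TGAGTCA (the AP-1 site) and for the CArG box bound by serum response factor. TGACGTCA was in 1.55% of all 32851 windows of that length, the AP-1 site in 4.46% and the CArG box in 1.47%. Of the 8 genes, Dusp1 held the 1 match to TGACGTCA, starting 143 bases before the start, Zfp36 held the 1 match to the CArG box, starting 58 bases before it, and 0 held the AP-1 site. The windows shown are those of Fos and Fosb because these genes changed most in endothelial cells and those of Dusp1 and Zfp36 for their matches, which are in capitals. They lie at chr12:85473640-85473889 on the plus strand for Fos, and on the minus strand at chr7:19310046-19310295 for Fosb, chr17:26508473-26508722 for Dusp1 and chr7:28379229-28379478 for Zfp36.
Fos: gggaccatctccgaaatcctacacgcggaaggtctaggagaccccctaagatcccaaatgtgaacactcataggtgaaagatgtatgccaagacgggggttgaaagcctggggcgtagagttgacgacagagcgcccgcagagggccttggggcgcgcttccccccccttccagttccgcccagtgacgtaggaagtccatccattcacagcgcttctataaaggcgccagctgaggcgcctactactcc
Fosb: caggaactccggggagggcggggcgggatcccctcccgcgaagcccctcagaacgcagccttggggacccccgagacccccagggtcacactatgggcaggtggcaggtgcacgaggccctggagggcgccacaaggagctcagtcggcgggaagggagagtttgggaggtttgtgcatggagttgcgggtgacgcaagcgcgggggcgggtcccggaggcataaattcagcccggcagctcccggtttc
Dusp1: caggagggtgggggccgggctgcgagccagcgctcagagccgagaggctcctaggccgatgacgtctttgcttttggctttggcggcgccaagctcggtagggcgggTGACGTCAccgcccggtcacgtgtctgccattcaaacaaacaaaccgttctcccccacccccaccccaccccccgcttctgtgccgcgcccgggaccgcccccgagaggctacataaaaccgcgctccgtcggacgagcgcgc
Zfp36: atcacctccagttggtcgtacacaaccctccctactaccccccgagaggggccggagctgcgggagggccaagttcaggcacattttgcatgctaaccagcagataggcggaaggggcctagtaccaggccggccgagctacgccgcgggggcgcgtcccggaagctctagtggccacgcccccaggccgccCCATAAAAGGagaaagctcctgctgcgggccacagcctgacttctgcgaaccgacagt
A match describes these letters only and is no evidence of binding.

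The libraries held 454 to 1000 cells each, 5698 in all, with medians of 2597.5 to 5637.5 UMIs per cell, and 22 barcodes were shared over all pairs of libraries. Cells were clustered without the members and related immediate early genes, so that the level of these genes did not place a cell, and were named from marker lists. Endothelial cells (272), microglia-like cells (373), oligodendrocytes (367) and astrocytes (293) were the main classes found in both naïve and tumour-bearing libraries. The labels' file numbers run in 2 sets, 1 of which holds both naïve libraries with WT early and KO intermediate, and the median mitochondrial share was 3.89% to 5.92% in that set and 1.38% to 2.48% in the other. Acod1 gave 0 UMIs in both naïve libraries and 26 to 41 in the 3 tumour-bearing libraries labelled KO, against 10 to 161 in those labelled WT. A 3′ tag beyond the inserted cassette can still be counted, so this checks no label.

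Tumour-associated endothelial cells had higher levels of the whole list than endothelial cells of naïve brain. The paper already shows Fos, Junb, Egr1 and Atf3 among the genes most raised in these cells, and Fos in astrocytes and oligodendrocytes. Since the list was chosen with earlier results of these data known, its counts are no independent support for a rise. All 10 members were tested and all 10 rose, where 44 of the 1142 genes tested in this class rose (3.85%) and 12 fell (1.05%). In every class the filter on low counts used all libraries together, so genes low in naïve cells could enter through their tumour-bearing level. Most members were low in naïve endothelial cells, and such genes could hardly be called lower. The count of 10 beside 3.85% is thus a description. The members' median log2 fold change was 3.09, beside 0.01 over all genes tested. The summed level of the members was 1889.9 CPM in the WT naïve and 2765 CPM in the KO naïve library, and 11241 to 21628 CPM in the 5 tumour-bearing libraries with at least 5 endothelial cells. The WT intermediate library had 2 endothelial cells and entered no sum of this class. The plot of levels by library shows each value.

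**Figure D1:**
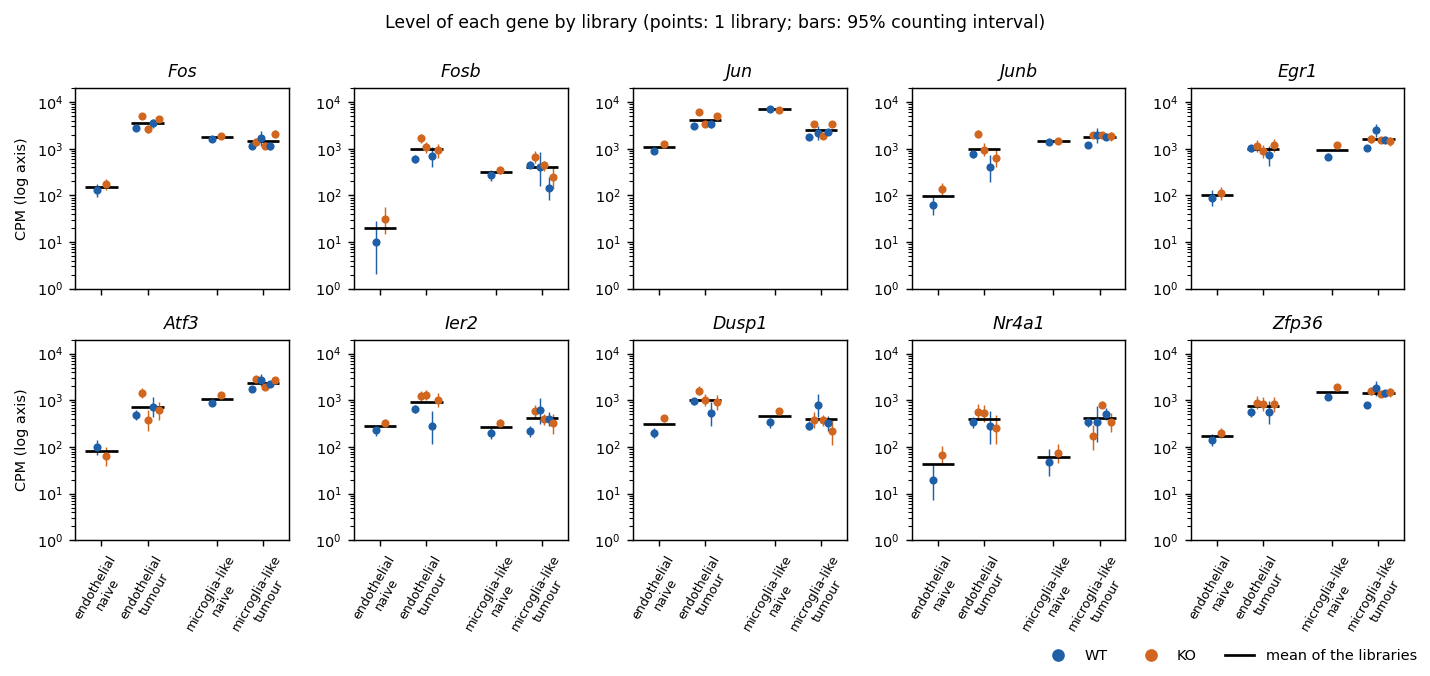
Level of each gene (CPM, log axis) in endothelial and microglia-like cells of naïve and tumour-bearing libraries. Each point is 1 library (blue, WT; orange, KO) with its exact 95% Poisson interval, which covers counting error only, and black lines are means. In endothelial cells the groups overlap for Ier2 alone, whereas in microglia-like cells Jun lies lower and Atf3 and Nr4a1 lie higher in tumour-bearing libraries.

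Among the AP-1 subunits, Fos was at 131 CPM in endothelial cells of WT naïve and 176 CPM in those of KO naïve mice. It was at 2742 CPM in WT early, 4925 in KO early, 2663 in KO intermediate, 3554 in WT late and 4299.9 in KO late. The lowest tumour-bearing library thus lay far above both naïve ones, and the log2 fold change was 4.48 (standard error, SE, 0.37, adjusted p = 4.0e-08). Adjusted p-values here come from edgeR's quasi-likelihood test, adjusted by the Benjamini-Hochberg method. Fosb, the close relative of Fos, was counted with 3 UMIs (9.81 CPM) in WT naïve and 10 UMIs (30.8 CPM) in KO naïve. It was at 609, 1664, 1074, 694 and 921 CPM in the tumour-bearing libraries in the same order, with a log2 fold change of 5.44 (SE 0.43, adjusted p = 2.9e-08). Jun, the main partner of Fos in AP-1, was already at 906 and 1233 CPM in the naïve libraries. It was at 3128, 5998, 3446, 3472 and 4942 CPM in the tumour-bearing ones, a log2 fold change of 1.88 (SE 0.31, adjusted p = 0.00053 by edgeR). Junb was at 62.1 and 136 CPM in the naïve libraries and at 758, 2079.6, 962, 409 and 642 CPM in the tumour-bearing ones, a log2 fold change of 3.22 (SE 0.43). None of these 4 genes overlapped between the groups.

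The other transcription factors moved the same way. Egr1, a zinc finger factor, was at 88.3 and 111 CPM in naïve endothelial cells and at 735 to 1201 CPM in the tumour-bearing libraries, a log2 fold change of 3.28 (SE 0.34). Atf3, a stress-induced factor of the ATF/CREB family, was at 101 and 64.7 CPM and then at 380.4 to 1467 CPM, a change of 3.03 (SE 0.45). Nr4a1, an orphan nuclear receptor, was at 19.6 and 67.8 CPM in the naïve libraries and at 251 to 569 CPM in the tumour-bearing ones, a change of 3.15 (SE 0.40). Each of these 3 passed edgeR's test, with adjusted p-values of 1.1e-06 for Egr1, 0.00017 for Atf3 and 2.7e-05 for Nr4a1, and the groups did not overlap.

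The 2 feedback genes and Ier2 rose as well, with log2 changes that, like that of Jun, were at most 2.00. Zfp36 was at 144 and 203 CPM in naïve endothelial cells and at 555 to 898 CPM in tumour-bearing libraries, a log2 fold change of 2.00 (SE 0.29). Dusp1 was at 203 and 413 CPM and then at 531 to 1619.9 CPM, a change of 1.69 (SE 0.33). Ier2 was at 226 and 329.9 CPM in the naïve libraries and at 664, 1248, 1320.3, 286 and 1033 CPM in the tumour-bearing ones, with a change of 1.56 (SE 0.33, adjusted p = 0.0047 by edgeR). WT late, with 8 endothelial cells and 7 Ier2 UMIs, lay below KO naïve, so that Ier2 was the 1 member whose groups overlapped. For the other 9 every tumour-bearing library was above both naïve libraries, as were 4.18% of the genes averaging at least 20 CPM in this class. The call was lost for Ier2 without KO naïve (adjusted p = 0.36) and for Dusp1 without WT naïve (adjusted p = 0.088, both edgeR).

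In the 4 libraries that share a numbering set, both naïve ones with WT early and KO intermediate, the endothelial log2 fold changes were 4.19 for Fos, 5.41 for Fosb, 3.31 for Egr1 and 1.68 for Jun. Those of the other members lay between 1.82 for Ier2 and 3.45 for Nr4a1. With so few libraries and genotype as a term, this fit hardly measures the spread between libraries, so effect sizes alone are given. Markers of other cell types were also summed in the endothelial cells of each library. The 12 markers of microglia-like cells summed to 1751 and 1909.5 CPM in naïve endothelial cells and to 2349.7 to 4126 CPM in tumour-bearing ones, with 0 of 12 at 0 in each naïve library and 3 to 10 of 12 at 0 in the tumour-bearing ones. The 8 markers of tumour cells summed to 899 to 931 CPM and 1164 to 4616 CPM, with 5 to 6 and 2 to 4 of the 8 at 0. The 12 markers of mural cells and fibroblasts had overlapping sums, 1426 to 3203 CPM in naïve and 1201 to 2655 CPM in tumour-bearing libraries, with 2 and then 4 to 7 of the 12 at 0. The 10 markers of endothelial cells themselves summed to 31883 to 35576 CPM and 22738 to 32612 CPM, with 0 at 0. The summed members of tumour cells were at 2947 to 4585 CPM, below those of endothelial cells in each of the 5 tumour-bearing libraries. With up to 10 of the 12 at 0, the microglia-like sum can rest on few genes, and the tumour-cell markers were counted in naïve cells too. Neither sum therefore measures RNA of the named cells alone. The part of microglia-like and tumour-cell RNA in the change was not tested.

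The change was spread over endothelial cells rather than held by a few of them. Each cell was thinned to 1000 UMIs, so that depth is the same in all. A Fos UMI was then present in 21 of 184 naïve endothelial cells (11.4%, exact binomial 95% interval 7.21 to 16.9%) and in 67 of 88 tumour-associated ones (76.1%, 65.9 to 84.6%), and without thinning in 18.48% and 82.95%. In astrocytes, whose summed level was the lowest of the 4 main classes in both naïve libraries, the thinned shares were 4 of 219 (1.83%) and 15 of 74 (20.3%). Median depths before thinning were 2505 and 2727 UMIs in endothelial cells and 2616 and 2265.5 UMIs in astrocytes. At least 3 of the 10 members were found in 11 of 85 (12.9%) and 22 of 99 (22.2%) endothelial cells of the WT and KO naïve libraries. In the tumour-bearing libraries they were found in 26 of 33, 12 of 14, 13 of 16, 5 of 8 and 11 of 15 cells, from 62.5% to 85.7%. Cells of 1 library are not replicates, and these intervals cover counting error only.

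**Figure D2:**
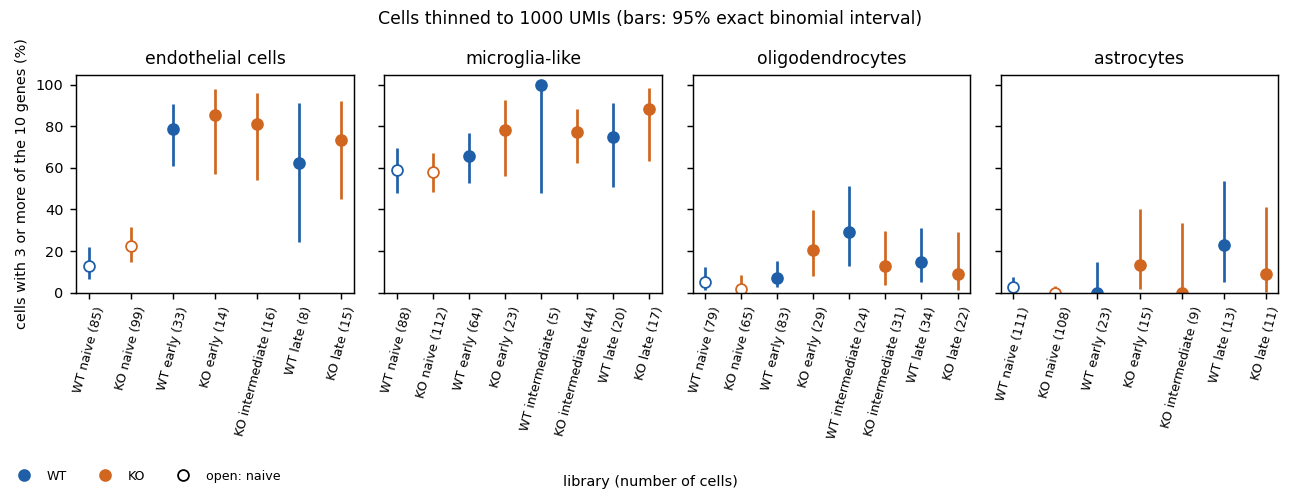
Share of cells (%) with at least 1 UMI of 3 or more of the 10 genes, by library, after thinning each cell to 1000 UMIs. Bars are exact 95% binomial intervals, open points are naïve libraries and the number of cells is in brackets. In endothelial cells both naïve libraries (12.9% and 22.2%) lie below the 5 tumour-bearing ones (62.5% to 85.7%), while microglia-like cells of naïve brain are already at 59.1% and 58.0%.

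Microglia-like cells differed from endothelial cells in that the list did not move as one. All 10 members were tested, 2 rose and 1 fell, where 301 of 3271 genes rose (9.2%) and 206 fell (6.3%). Atf3 was at 880.3 and 1271 CPM in the naïve libraries and at 1709 to 2824 CPM, with a median of 2451, in the 6 tumour-bearing ones, a log2 fold change of 1.12 (SE 0.30, adjusted p = 0.019 by edgeR). Nr4a1 was at 48.6 and 74.2 CPM and then at 169 to 809.6 CPM with a median of 344, a change of 2.85 (SE 0.53, adjusted p = 0.0018). Jun went the other way, from 7018 and 6894 CPM to between 1759 and 3459 CPM with a median of 2229.7, a change of -1.53 (SE 0.28, adjusted p = 0.0015). The groups did not overlap for these 3, as for 6.11% (tumour-bearing above) and 12.9% (below) of the genes averaging at least 20 CPM, and they overlapped for the other 7. Without WT naïve the 3 calls were lost, with log2 fold changes of 0.95 for Atf3, 2.63 for Nr4a1 and -1.27 for Jun. Without KO naïve those of Atf3 and Nr4a1 were lost (1.16 and 2.94), and without a filter on low counts that of Atf3 (1.05).

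Fos was at 1649 and 1840.0 CPM in naïve microglia-like cells and at 1124 to 2072 CPM in tumour-bearing libraries, a log2 fold change of -0.31 (SE 0.29, adjusted p = 0.50 by edgeR). Fosb had 272 and 353 CPM, then 147 to 678 CPM (log2 fold change 0.40, SE 0.42). Junb (0.31, SE 0.29), Egr1 (0.76, 0.33), Ier2 (0.60, 0.35), Dusp1 (-0.31, 0.36) and Zfp36 (-0.12, 0.30) did not pass either. The summed members were at 13642 and 15921 CPM in naïve microglia-like cells, above every tumour-associated endothelial library but KO early (21628) and, for WT naïve, KO late (15664). They were at 8894 to 15061 CPM in tumour-bearing libraries, which overlap the naïve ones.

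The naïve and the tumour-associated microglia-like cells lay in different clusters. Of the 200 naïve cells 198 were in 1 cluster, led by P2ry12, Siglech and Cx3cr1, and of the 173 tumour-associated cells 163 were in 2 others, 97 in a cluster led by Ccl4, C1qb and C1qc and 66 in a cluster led by C1qc, C1qb and C1qa that also had Cst7 and Clec7a among its 10 leading genes. Some members differed between these 2 clusters, given as a description with no test, since the cells were clustered on these data. The median depth was 2391 UMIs per cell in the Ccl4-led cluster and 5287 in the other. In the libraries with at least 5 cells, Jun was at 2483 to 6425 CPM in the Ccl4-led cluster and at 399.9 to 1594 CPM in the other. Fos was at 1767 to 2886 CPM in the first and at 613 to 962 CPM in the second, Egr1 at 2157 to 2741 and 353 to 1594 CPM, and Zfp36 at 1429 to 2345 and 429 to 1221 CPM. The other members overlapped, such as Atf3 (2441 to 4050 and 1101 to 2456 CPM) and Nr4a1 (60.9 to 1024 and 168 to 655 CPM). WT late also had 5 cells in the cluster of most naïve cells, with Jun at 4556 CPM (46 UMIs). The difference between naïve and tumour-bearing libraries in Jun is thus mostly a comparison of cells in different clusters. The 10 markers of macrophage-like cells summed to 456 and 739 CPM in naïve microglia-like cells, with 4 to 5 of the 10 at 0, and to 2654 to 5886 CPM in tumour-associated ones, with 1 to 7 at 0. Their part in the changes of Jun, Atf3 and Nr4a1 was not tested.

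Oligodendrocytes and astrocytes had the lowest summed levels of the 4 main classes. In oligodendrocytes 6 of the 10 members passed the filter on low counts, and Fos and Fosb rose, where 1.58% of 2664 genes rose. Fos was at 227 and 71.8 CPM in the naïve libraries. It was at 562 in WT early, 977 in KO early, 2020.3 in WT intermediate, 588 in KO intermediate, 1827 in WT late and 313 CPM in KO late, all above both naïve values, and the log2 fold change was 2.81 (SE 0.49, adjusted p = 0.0068 by edgeR). Fosb was at 26.5 and 0 CPM and then at 13.6 to 552 CPM, which overlap, with a fitted change of 3.51 (SE 0.85, adjusted p = 0.039). Jun, with 413 and 247 CPM in naïve and 523 to 989 CPM in tumour-bearing libraries, did not overlap and did not pass (1.12, SE 0.29, adjusted p = 0.055 by edgeR). It passed by DESeq2 (adjusted p = 0.018) and, by edgeR, without a filter on low counts, with Leiden clustering, with doublets removed, without the genotype term and without WT early, KO intermediate or WT naïve (adjusted p between 0.0055 and 0.046), whereas without KO naïve its adjusted p was 0.998. Fos and Jun were the 2 members of the 10 whose libraries did not overlap, as for 3.87% of genes of at least 20 CPM. The call of Fos was lost without KO naïve (log2 fold change 2.61) and that of Fosb without any 1 of 6 libraries, without the genotype term and with cells thinned to 1000 UMIs (adjusted p between 0.051 and 0.28). Within the numbering set of the naïve libraries the log2 fold changes were smaller, 1.97 for Fos, 0.77 for Jun, 1.23 for Junb, 1.01 for Egr1 and 0.07 for Dusp1. Over all libraries those of Junb, Egr1 and Dusp1 were 1.86, 1.69 and 1.05. The 8 markers of tumour cells summed to 79.5 to 130 CPM in naïve oligodendrocytes, with 3 to 5 of the 8 at 0, and to 149 to 1248 CPM in those of tumour-bearing libraries, with 1 to 3 at 0. Their part in these changes was not tested.

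In astrocytes 3 members passed the filter and Fos rose, where 0.73% of 685 genes rose. It was at 73.8 and 32.8 CPM in the naïve libraries and at 71.0 in WT early, 1132 in KO early, 159 in KO intermediate, 850.2 in WT late and 1249.7 CPM in KO late, so that WT early lay within the naïve range. The log2 fold change was 3.42 (SE 0.79, adjusted p = 0.039 by edgeR). Within the numbering set of the naïve libraries it was 0.68, and without KO naïve, which leaves 1 naïve library, it was 2.30. The call was lost without KO early (3.21), with all genes used for clustering (3.61) and with cells thinned to 1000 UMIs (4.25). Jun was the 1 member of astrocytes whose libraries did not overlap, with 205 and 188 CPM against 213 to 1375 CPM, and did not pass (1.56, SE 0.46), while 2.43% of genes of at least 20 CPM had tumour-bearing libraries above. The tumour-cell markers summed to 594 to 634 CPM in naïve astrocytes, with 3 of the 8 at 0, and to 795 to 3858 CPM in tumour-bearing libraries, with 2 to 5 at 0, and their part in the rise of Fos was not tested.

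**Figure D3:**
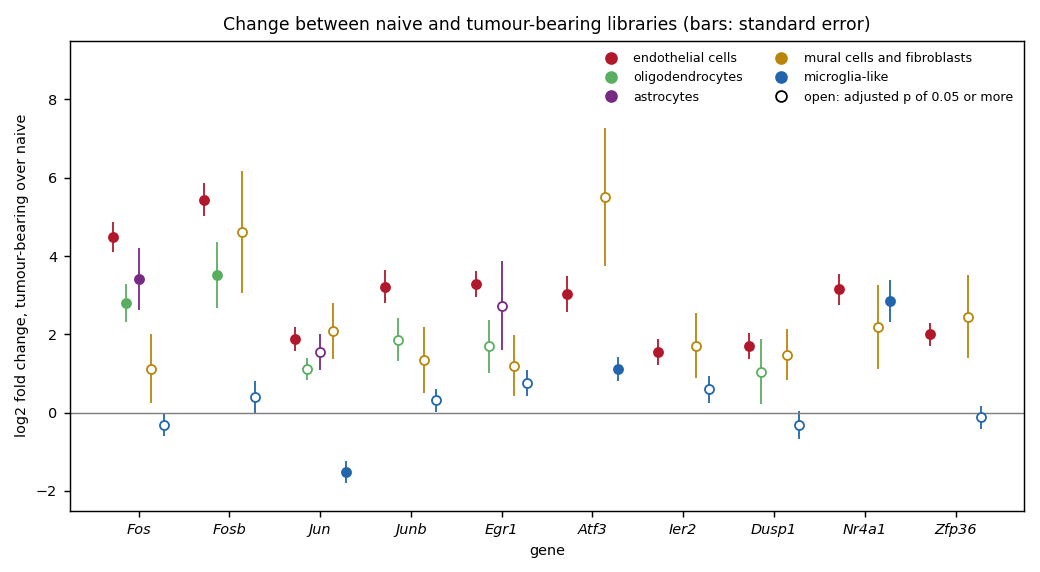
Log2 fold change of each gene between tumour-bearing and naïve libraries in 5 cell classes, with standard errors. Filled points passed edgeR's test at an adjusted p of 0.05, open points did not, and a missing point was removed by the filter on low counts. All 10 points of endothelial cells are filled and above 0, whereas microglia-like cells have 2 filled points above 0 and 1, Jun, below.

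Mural cells and fibroblasts had 6 and 8 cells in the naïve libraries and 6 to 12 in the 4 tumour-bearing ones that were tested. All 10 members had positive log2 fold changes, from 1.12 for Fos to 5.51 for Atf3. In edgeR's test 0 members passed, as did 0 of the 1389 genes tested (0%). An unadjusted p under 0.05 was found for 4 members and for 208 of the 1389 genes, and DESeq2 called 2 members. Fos was at 3013 and 1182 CPM in the naïve libraries and at 6194, 6783, 1284 and 1937 CPM in WT early, KO early, KO intermediate and WT late, which overlap. The libraries did not overlap for 5 members, as for 12.6% of genes of at least 20 CPM. The tumour-cell markers summed to 1283 to 2583 CPM in naïve and 3296 to 12624 CPM in tumour-bearing libraries of this class, with 4 to 6 and 2 to 4 of the 8 at 0, and their part was not tested. These markers include Col3a1, which was also among the leading genes of the cluster that gave most cells of this class. In neuron-like cells only Egr1 passed the filter, with 925 and 492.95 CPM in 8 and 5 naïve cells and 168 to 377 CPM in 3 tumour-bearing libraries (log2 fold change -1.21, SE 0.56). It did not pass, and 0.215% of 465 genes rose and as many fell. The tumour-bearing libraries were below both naïve ones for 3 members there, as for 12.9% of genes averaging at least 20 CPM.

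Whether the change differed between classes was tested directly, as the change in a class minus that in microglia-like cells, within 1 fit that holds the library constant. In endothelial cells all 10 differences were positive and 7 passed, where 1.33% of 5350 genes passed in either direction. They were 4.72 for Fos (SE 0.70, adjusted p = 9.6e-06 by edgeR), 5.07 for Fosb (0.79), 3.26 for Jun (0.53), 2.69 for Junb (0.63), 2.60 for Egr1 (0.63), 2.11 for Zfp36 (0.57) and 2.08 for Dusp1 (0.54). Atf3 (1.63, SE 0.61), Ier2 (1.02, 0.51) and Nr4a1 (0.07, 0.64) did not pass. In oligodendrocytes Fos (2.95, SE 0.69) and Jun (2.57, 0.53) passed, where 1.01% of genes did. In astrocytes Fos (3.46, 0.75) and Jun (2.73, 0.56) passed, where 0.841% did and the median of all genes was -0.27. In mural cells and fibroblasts Jun (3.997, 0.59), Fosb (4.59, 1.17) and Zfp36 (2.92, 0.79) passed, where 0.953% did and the median of all genes was 0.46. Every difference for Jun includes its fall in microglia-like cells (log2 fold change -1.53). On its own Jun did not pass in oligodendrocytes (1.12), in astrocytes (1.56) or in mural cells and fibroblasts. In neuron-like cells 0 members passed by edgeR, and 0.355% of genes passed, with a median of 0.45. There 1 member had an unadjusted p under 0.05, as did 498 of 5350 genes. DESeq2 called 4 members in endothelial cells, 1 in oligodendrocytes, 1 in mural cells and fibroblasts and 0 in neuron-like cells. Without WT naïve 3 members passed in endothelial cells and 0 in astrocytes, and without KO naïve 0 passed in oligodendrocytes and 0 in mural cells and fibroblasts.

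In the 6 tumour-bearing libraries, the levels were compared between cell classes of the same library, each against the GL261 tumour cells. Endothelial cells, mural cells and fibroblasts, and myeloid cells stood above tumour cells for most of the list. Cells of the oligodendrocyte lineage, astrocytes and lymphocytes stood below for part of it. Since 42.4% to 61.1% of the 5581 genes differed from tumour cells in each class, these counts describe the classes and are no property of the list. The median of all genes in these comparisons was between -0.16 and -0.43. In endothelial cells all 10 members were higher (19.5% of genes were higher), from 1.04 for Egr1 (SE 0.39) to 2.62 for Zfp36 (0.35) on the log2 scale. In mural cells and fibroblasts all 10 were also higher (19.7% of genes), from 1.13 for Ier2 to 2.91 for Zfp36. Levels of Fos were 1001 to 1815 CPM in tumour cells with a median of 1090.2, and 2663 to 4925 CPM in endothelial cells.

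**Figure D4:**
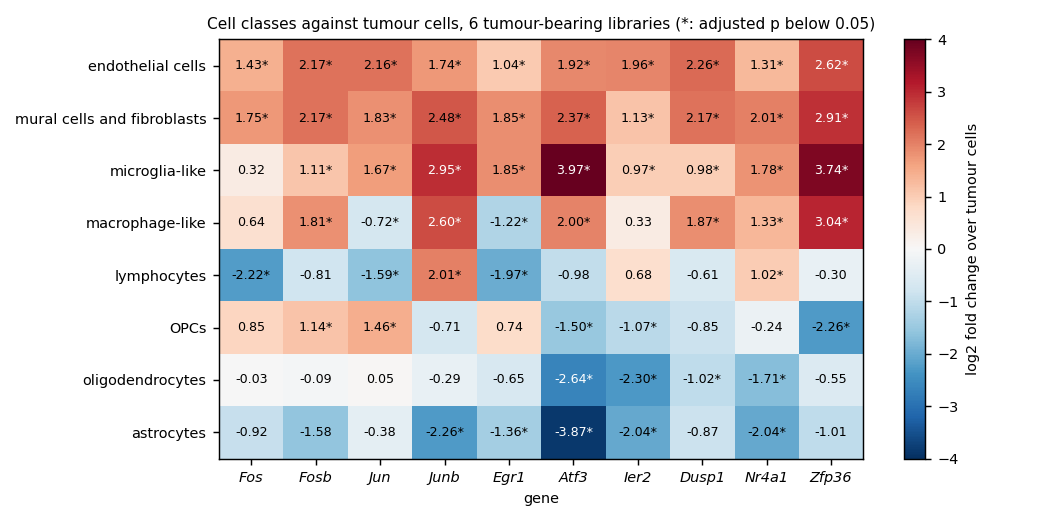
Log2 fold change of each gene in 8 cell classes over tumour cells of the same tumour-bearing libraries. An asterisk marks an adjusted p below 0.05 in edgeR's test. Endothelial cells and mural cells and fibroblasts have all 10 values above 0 with an asterisk, and the lowest value is -3.87 for Atf3 in astrocytes.

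Microglia-like cells were higher than tumour cells in 9 members (23.5% of genes were higher), with the largest values for Atf3 (3.97, SE 0.39) and Zfp36 (3.74, 0.33), and Fos did not pass (0.32, 0.38). Macrophage-like cells, which were almost absent from naïve brain (2 cells), were higher in 6 members, Zfp36 (3.04), Junb (2.60), Atf3 (2.00), Dusp1 (1.87), Fosb (1.81) and Nr4a1 (1.33), and lower in Egr1 (-1.22) and Jun (-0.72), where 24.9% of genes were higher and 36.2% lower. Set against microglia-like cells directly, macrophage-like cells were lower in Egr1 by a log2 difference of -3.07 (SE 0.39), in Jun of -2.39 (0.26) and in Atf3 of -1.97 (0.37), where 7.15% of genes were lower. Each of these 3 passed edgeR's test, and the levels did not overlap between the classes. Egr1 was at 102 to 306 CPM in macrophage-like and 1017 to 2481 CPM in microglia-like cells, Jun at 304 to 617 and 1759 to 3459 CPM, and Atf3 at 389.8 to 752 and 1709 to 2824 CPM. The other 7 members did not pass in this comparison, with a difference of 0.31 (SE 0.38) for Fos and -0.35 (0.30) for Junb.

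Lymphocytes were higher than tumour cells in Junb (2.01, SE 0.33) and Nr4a1 (1.02, 0.34), and lower in Fos (-2.22), Egr1 (-1.97) and Jun (-1.59), where 20.2% of genes were higher and 29.6% lower. Junb was at 640.3 to 1375 CPM in them, Fos at 24.8 to 402 CPM. Oligodendrocyte precursor cells, found in tumour-bearing libraries alone, had Jun (1.46, SE 0.25) and Fosb (1.14, 0.45) higher and Zfp36 (-2.26), Atf3 (-1.50) and Ier2 (-1.07) lower, where 20% of genes were higher and 24.8% lower. With scaling by library size alone, 4 members were higher and 1 was lower. Oligodendrocytes were lower in Atf3, Ier2, Nr4a1 and Dusp1 (31.4% of genes were lower) and astrocytes in Atf3, Junb, Ier2, Nr4a1 and Egr1 (26.8%). Fos did not pass in either (-0.03, SE 0.38, and -0.92, 0.45).

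Differences between genotypes and between stages were not detectable for the members at this number of libraries. Between KO and WT libraries with the stage as a block, 0 members passed edgeR's test in any of 7 classes. The share of genes that passed was 0.0733% in endothelial cells, 0.182% in astrocytes, 0.078% in macrophage-like cells, 0.0375% in oligodendrocytes and 0% in microglia-like cells, precursor cells and tumour cells. In endothelial cells all 10 log2 fold changes of KO over WT were positive, with a median of 0.70 beside 0.00 over all genes. There 6 members had an unadjusted p under 0.05, as did 119 of all 2728 genes tested, and the lowest adjusted p by edgeR was 0.21 for Junb (1.15, SE 0.30). This rests on 3 stages, naïve, early and late, and at the early stage the WT mouse was female and the KO mouse male. In microglia-like cells 9 of 10 values were positive, with a median of 0.29 and 0 at an unadjusted p under 0.05, and in tumour cells 3 of 10 were, with a median of -0.23 and 1. Over all genes, 108 of 3271 in microglia-like cells and 936 of 14323 in tumour cells were under that p. In oligodendrocytes Fos (-1.23, SE 0.38) and Fosb (-2.16, 0.60) were at an unadjusted p under 0.05, as were 137 of 2664 genes. DESeq2 called 0 members in every class. Between late and early libraries 0 members passed edgeR's test, or DESeq2's, in 5 classes (0% to 0.0156% of genes passed by edgeR). Fosb in microglia-like cells (-1.62, SE 0.46, adjusted p = 0.62 by edgeR) was the 1 member there with an unadjusted p under 0.05, beside 90 of 1849 genes. Each of the other 4 classes had 0 such members.

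Barcodes of few UMIs, which can hold free RNA or small or damaged cells, were set beside the classes as a background, taking those ranked after 2000 and up to 3000 by UMIs in each library, with library medians of 252 to 521 UMIs per barcode. There the summed members were at 1888 and 2209.8 CPM in the WT and KO naïve libraries and at 2993 to 4995 CPM in the tumour-bearing ones. Fos was at 275 and 309.7 CPM and then at 718 to 1682 CPM, whereas Jun was at 961 and 867 CPM and at 648 to 892 CPM, so that Fos was higher in each tumour-bearing library and Jun overlapped. Endothelial Fos was 0.476 and 0.567 times the level of these barcodes in the naïve libraries and 3.28 to 4.75 times in the 5 tumour-bearing ones. Endothelial Fos, Fosb, Jun, Dusp1 and Zfp36 were above these barcodes in all 5 tumour-bearing libraries with counting intervals that did not overlap. The lowest ratio of any member there was 1.01, for Ier2. In naïve endothelial cells Ier2 was already at 5.58 to 6.76 times and Dusp1 at 2.64 to 2.88 times these barcodes, with intervals apart in both libraries. Nr4a1 also lay above them there (1.32 to 2.44 times), Fosb, Junb and Egr1 lay below like Fos, and Atf3, Jun and Zfp36 lay above in 1 of 2 libraries. In oligodendrocytes Fos was above these barcodes in 2 of 6 tumour-bearing libraries (0.346 to 1.81 times) and in astrocytes in 1 of 5 (0.0989 to 1.38 times). The counting intervals lay apart in 1 of the libraries above, WT late of the oligodendrocytes, and, of those below, in 1 of the oligodendrocytes and 2 of the astrocytes. The part of the RNA in such barcodes in the rise of Fos in these 2 classes was not tested. In microglia-like cells of naïve brain Jun was 7.30 and 7.96 times and Fos 5.94 and 6.01 times the level of the same library's barcodes of low UMI count.

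**Figure D5:**
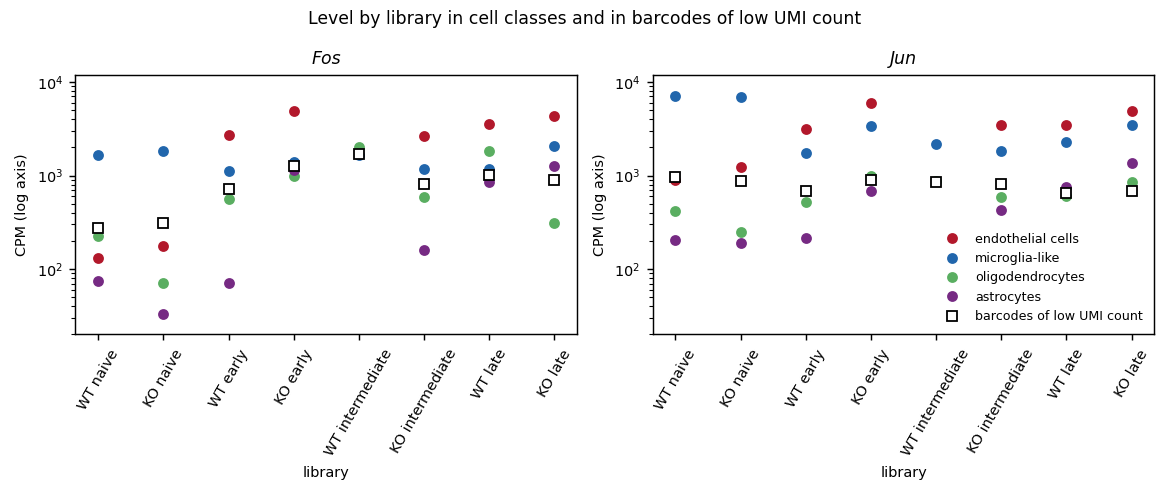
Levels of Fos and Jun (CPM, log axis) by library in 4 cell classes (circles) and in the barcodes ranked after 2000 and up to 3000 by UMIs (open squares). Endothelial Fos lies below the squares in both naïve libraries and above them in all 5 tumour-bearing ones, while Fos of oligodendrocytes and astrocytes in tumour-bearing libraries is between 0.0989 and 1.81 times the squares.

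Other early genes were counted from lists drawn up along with the members. In endothelial cells 5 of 13 tested further immediate early genes rose and 0 fell (3.85% of genes rose), and the 4 largest of them were Cyr61, a matrix-associated signalling protein (log2 fold change 2.98, SE 0.41), Ppp1r15a, a phosphatase subunit of the stress response (2.16, 0.38), Btg2 (1.89, 0.34) and Ier3 (1.73, 0.39). Of 8 heat shock genes tested, Hspa1a (1.76, SE 0.36) and Hspa1b (1.55, 0.34) rose, both encoding inducible HSP70. The 1 early NF-kappaB target tested, Nfkbia, which encodes an inhibitor of NF-kappaB, did not pass (0.42). In microglia-like cells 8 of 26 further immediate early genes rose and 5 fell (9.2% and 6.3% of genes), led by Nr4a3 (7.69, SE 1.54), Maff (5.19, 0.89), Gadd45b (4.58, 0.60) and Pim1 (3.63, 0.49). In these cells 10 of 12 early NF-kappaB targets rose, among them Il1b (8.90, SE 0.82), Tnf (5.47, 0.68), Ccl2 (3.57, 0.62) and Il1a (3.56, 0.57). Il1b is also among the 10 markers of macrophage-like cells, whose sum was higher in tumour-associated microglia-like cells. The part of macrophage-like RNA in these rises was not tested. Hspa1a fell there (-1.35, SE 0.37), the 1 of 9 heat shock genes that passed. Of factors upstream of these genes, Mapkapk2, a kinase downstream of p38, rose in microglia-like cells (2.53, SE 0.44), the 1 of 9 tested that passed, and the 1 tested in endothelial cells, Atf4, did not pass (0.98). Nr4a3 is of the same receptor family as the member Nr4a1, which rose in the same cells.

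Over 76 sums of cells by class and library, the mean of the members, centred within each class, was set beside 8579 genes of at least 20 CPM. Genes outside the list that were among the most like it included Jund (Pearson's r = 0.61), an AP-1 subunit, Atf4 (0.56), Isg15 (0.56), Nfkbiz (0.55), Ifitm3 (0.54), Rgs16 (0.52), Csrnp1 (0.52), Dnajb1 (0.51) and Ifi27l2a (0.51). Among the members r with that mean ranged from 0.63 for Jun to 0.87 for Fos, each being part of it. The sums of 1 library share its cells, depth and free RNA, so these values are a description with no test.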

How the data were processed

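Drop-seq counts of 8 libraries were used. The deposited files hold raw UMI counts per gene and barcode, which the authors made with bcl2fastq 2.0 and STAR on GRCm38/mm10, per the submitters' processing notes, without normalization. The members and gene lists were chosen with earlier results of these data known. The 1000 barcodes with most UMIs per library were taken, and those with at least 1000 genes were kept (5698 cells, with 2885345 to 9950713 UMIs per library in all barcodes). Genes in at least 30 cells entered a principal component analysis (50 components) without 43 list genes, then tSNE (Rtsne 0.17, perplexity 50) and HDBSCAN (scikit-learn 1.9.0), and clusters were named from marker lists. Of the endothelial cluster, 13 cells with more mural than endothelial marker UMIs were counted with mural cells. Doublets were kept in the main analysis and removed in an alternative.

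UMIs were summed per library and class (at least 5 cells) and tested with edgeR 4.0.16 in R 4.3.3 (TMM, filterByExpr, quasi-likelihood test, Benjamini-Hochberg adjustment over all genes tested in a comparison, called at 0.05), with genotype as a term for naïve against tumour-bearing, the library as a block between classes and the stage as a block for KO against WT. Tests on simulated counts of endothelial cells recovered 80% of genes changed by 2 on the log2 scale and 100% of those changed by 3. In the same simulation 8 unchanged genes were called. The changed genes were drawn from the most abundant ones, with the same spread set for every gene and no genotype effect. Recovery of genes at a low level, as some members were in naïve cells, was therefore not measured. The SE given with edgeR's log2 fold changes was worked back from the test, as the absolute change divided by the square root of the quasi-likelihood F. Intervals are exact at 95% and cover counting error only. All 10 members were named in each comparison, of the other lists the 4 called genes with the largest change per class, and for likeness the 10 other genes with the highest r, on log2(CPM + 10), of which 1 is not reported here. The alternatives were DESeq2 1.42.0, no filter on low counts, scaling by library size, at least 10 cells per sum, Leiden clustering (leidenalg 0.10.2), clustering with all genes, doublets removed, cells thinned to 1000 UMIs, no genotype term, the numbering set of the naïve libraries, and each library left out.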

Additional observations from a re-analysis of the deposited data

Results flagged for a closer look

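In 10 of 90 groups of 4 to 6 tumour-bearing libraries, 1 library stood apart by Dixon's ratio of its gap to the whole range. The cut-offs assume normal, independent values, which low counts and genes of shared libraries do not give. No rate by chance is therefore set beside this count. In oligodendrocyte precursor cells these were Atf3 in WT late (215 CPM, others 0 to 62.2, ratio 0.711), Egr1 in KO early (1725 CPM, others 623 to 995, ratio 0.663) and Ier2 in KO early (471 CPM from 6 UMIs, ratio 0.826). In astrocytes they were Fosb in KO late (333 CPM from 8 UMIs, ratio 0.902) and Ier2 in KO early (166 CPM from 6 UMIs, ratio 0.748). In lymphocytes KO late was highest for Atf3 (238 CPM, others 24.8 to 58.2, ratio 0.844), Fosb (253 CPM, ratio 0.734) and Jun (558 CPM, ratio 0.714). In microglia-like cells Dusp1 was highest in WT intermediate (808 CPM from 14 UMIs in 5 cells, ratio 0.721) and Junb was lowest in WT early (1188 CPM, others 1827 to 2017, ratio 0.770).

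The change between naïve and tumour-bearing libraries differed from that of microglia-like cells by edgeR's test of the difference for 14 pairs of gene and class. On the log2 scale it was larger in endothelial cells by 4.72 for Fos, 5.07 for Fosb, 3.26 for Jun, 2.69 for Junb, 2.60 for Egr1, 2.11 for Zfp36 and 2.08 for Dusp1. It was larger in mural cells and fibroblasts by 4.59 for Fosb, 3.997 for Jun and 2.92 for Zfp36, in astrocytes by 3.46 for Fos and 2.73 for Jun, and in oligodendrocytes by 2.95 for Fos and 2.57 for Jun. The differences for Jun include its fall in microglia-like cells (-1.53).

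Barcodes ranked after 2000 and up to 3000 by UMIs, which entered no test, held more of the summed members in tumour-bearing than in naïve libraries (1888 and 2209.8 CPM). The sums were 3379 CPM in WT early, 4122 in KO early, 4995 in WT intermediate, 3477 in KO intermediate, 3637 in WT late and 2993 in KO late.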

How the results depend on the processing

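All 10 members were higher in tumour-associated endothelial cells by DESeq2, and 9 or 10 with each library left out. Without KO naïve 2 values in microglia-like cells that were not called changed sign, Dusp1 to 0.14 and Zfp36 to 0.0012, and over all libraries left out in turn they ranged from -0.81 to 0.14 and from -0.36 to 0.0012. Where a count of members moved by over 1.5 times or to or from 0, the cause was not tested. Counts of members by DESeq2 and the other alternatives, here and above, are given without the share of all genes. They show only how the counts moved.

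Counts in the numbering set are left out, since that fit hardly measures the spread between libraries. For naïve against tumour-bearing, astrocytes (1 higher) gave 2 by DESeq2, 2 without a filter, 2 with doublets removed, 0 with all genes clustered and 0 thinned. Oligodendrocytes (2) gave 4 by DESeq2, 5 without a filter and 1 thinned. Microglia-like cells (2 higher) gave 1 without a filter, mural cells and fibroblasts (0) gave 2 by DESeq2 and 2 without a filter, and neuron-like cells (0) gave 1 with Leiden clustering. For the difference of change, endothelial cells (7) gave 4 by DESeq2 and 4 with Leiden clustering. Astrocytes (2) gave 4 with doublets removed. Mural cells and fibroblasts (3) gave 1 by DESeq2, by library size and with Leiden clustering and 6 without a filter. Oligodendrocytes (2) gave 1 by DESeq2 and with Leiden clustering and 5 with at least 10 cells and with doublets removed. Neuron-like cells (0) gave 1 with Leiden clustering.

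Between classes, precursor cells (2 higher, 3 lower) gave 4 and 1 by DESeq2, 1 and 5 without a filter and 4 and 1 by library size, 1 higher with doublets removed and 1 lower with all genes clustered. Astrocytes (5 lower) gave 3 by DESeq2 and 10 without a filter, and lymphocytes (2 and 3) gave 1 and 6 without a filter. Macrophage-like against microglia-like cells (0 higher) gave 1 without a filter, with at least 10 cells, with Leiden clustering and with doublets removed. For KO against WT, oligodendrocytes (0) gave 2 without a filter.

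With each library left out, naïve against tumour-bearing gave 0 to 2 in astrocytes, 0 to 5 in oligodendrocytes, and 0 to 2 higher and 0 to 1 lower in microglia-like cells. The difference of change gave 3 to 9 in endothelial cells (3 without WT naïve, 9 without WT late), 0 to 3 in astrocytes, 0 to 6 in mural cells and fibroblasts and 0 to 4 in oligodendrocytes. Between classes the ranges were 1 to 3 higher and 1 to 3 lower in precursor cells, 2 to 6 lower in astrocytes, 1 to 3 higher and 3 to 5 lower in lymphocytes and 1 to 2 lower in macrophage-like cells. KO against WT gave 0 to 1 in astrocytes and 0 to 2 in oligodendrocytes, and late against early 0 to 1 in oligodendrocytes. No paired analysis was possible because each group has 1 library, all numbered replicate 1, so that no replicate number pairs libraries. The blocks used were the stage and the library. Classes with few cells, such as 8 endothelial cells in WT late, limit the precision.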

Other observations

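Ciliated ependymal-like cells had both naïve libraries (35 cells in WT, 18 in KO) and 1 tumour-bearing library (WT early, 8 cells), so that no test was made. Fos was at 77.7 and 285 CPM in the naïve libraries and at 2769 CPM in WT early, Egr1 at 53.8 and 67.9 and then 1028 CPM, and Dusp1 at 32.9 and 211 and then 967 CPM. The 7 markers of choroid plexus epithelial-like cells summed to 38014 to 46713 CPM in the naïve libraries of this class and to 78753 CPM in WT early, with 0 at 0, and its own 9 markers to 17153 to 18620 CPM and 13572 CPM, with 0 at 0. The part of either in these values was not tested. In choroid plexus epithelial-like cells, with 29 and 23 naïve cells and 8 cells of KO intermediate, Fos was at 153 CPM in WT naïve (20 UMIs) and had 0 UMIs in KO naïve and in KO intermediate.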
